A study of Homo sapiens with 12 samples.

Results

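Cells given siGOLM1-1 were compared directly with cells given siGOLM1-2, a pair of siRNAs against the same gene, GOLM1. The comparison used the 4 libraries labelled siGOLM1-1 and the 4 labelled siGOLM1-2, which are 8 of the 12 libraries of the study. All libraries came from A549, an established human lung adenocarcinoma line, harvested 72 h after reverse transfection with siRNA at 50 nM and Lipofectamine RNAiMAX. The other 4 libraries came from cells that received a non-targeting control siRNA at the same dose and time. They are given beside the direct difference, and no untransfected cells were analysed here. The work was done in 1 cell line. The labels call the 4 libraries of a group biological replicates without naming separate passages, so p-values measure the spread between these cultures. Of 57773 genes in the count table, 24653 had no count in any library, and 17074 passed edgeR's filterByExpr on the 8 siRNA libraries and were tested.

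An siRNA is a short double-stranded RNA whose guide strand is loaded into an Argonaute protein and directs cleavage of the transcript that it matches along its length. The guide can also pair with other transcripts through its seed, a short stretch near its 5′ end, mostly in 3′ UTRs and in the way a microRNA does. Transcripts paired in that way are lowered, and different siRNAs against one gene have different seeds. GOLM1 encodes GP73, a membrane protein of the Golgi whose lumenal part can be cut off and secreted.

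GOLM1 was low in all 8 siRNA libraries. It stood at 38.9, 38.7, 38.8 and 37.5 CPM (counts-per-million) in the siGOLM1-1 libraries and at 47.2, 44.7, 44.6 and 53.4 CPM in the siGOLM1-2 libraries. The control libraries held 372, 378, 371 and 345 CPM. The siRNA groups did not overlap, and GOLM1 was 1.26-fold lower with siGOLM1-1 (log2 difference -0.33 ± 0.08 (SE), adjusted p = 0.00354, edgeR's quasi-likelihood test with Benjamini-Hochberg adjustment). All log2 differences below are siGOLM1-1 minus siGOLM1-2 from that test, so a negative value means a higher level with siGOLM1-2. CPM values were divided by TMM-scaled library totals and grow with transcript length, so they are compared between groups and not between genes.

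Total counts per library ran from 49456318 to 71344718 with siGOLM1-1, from 46824996 to 56185408 with siGOLM1-2 and from 41617042 to 50749522 in control. Summed levels of 6 epithelial markers were 5357 to 5755 CPM with siGOLM1-1 and 6439 to 6980 CPM with siGOLM1-2, but the members disagreed. KRT8, KRT18 and KRT19 were lower with siGOLM1-1, and KRT7 was higher, at 2313 to 2787 against 1138 to 1584 CPM. CDH1 (107 to 129 and 100 to 137 CPM) and EPCAM (4.76 to 5.9 and 3.44 to 6.28 CPM) overlapped between the siRNA groups. All 5 T and B cell markers stayed under 1 CPM in every library. Of 7 fibroblast markers, 3 were under 1 CPM in every library, and the others went in different directions. COL1A1 was at 48.1 to 92.8 CPM with siGOLM1-1 and 21.3 to 29.7 CPM with siGOLM1-2. COL3A1, LUM and PDGFRA were lower with siGOLM1-1 (log2 differences -3.22, -2.78 and -2.96), at no more than 1.49 CPM there and 7.58 CPM with siGOLM1-2. The difference of COL3A1 was -4.09 without replicate 1 of siGOLM1-1. Of 9 alveolar type II markers, 6 were under 1 CPM in every library. Mitochondrial transcripts took 4.1 ± 0.7% of counts with siGOLM1-1 and 6.01 ± 1.14% with siGOLM1-2 (SD, n = 4; two-sided exact permutation test, p = 0.0571; the smallest p this design allows is 0.0286). Replicate 1 of siGOLM1-1 and replicate 4 of siGOLM1-2 stood apart from their groups. On the second component of the 8 siRNA libraries, which held 11.7% of the variance, they scored 34.7 and -38 while the others lay between -16.1 and 17.6. The control libraries fell into pairs, with replicates 1 and 2 apart from 3 and 4, which widens the spread behind each value given against control.

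The siRNA used was the main axis of the 12 libraries. The first principal component held 44.6% of the variance. It placed the siGOLM1-1 libraries at 44 to 60.1, the control libraries at -5.5 to 3.6 and the siGOLM1-2 libraries at -56 to -51.7, so the siRNA groups lay on opposite sides of control. The second component held 27.7% and separated the control libraries, at 40.2 to 54.2, from both siRNA groups, at -37.9 to -8.4. Among the 8 siRNA libraries alone, the first component held 73.2% and separated the siRNAs without overlap.

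**Figure D1:**
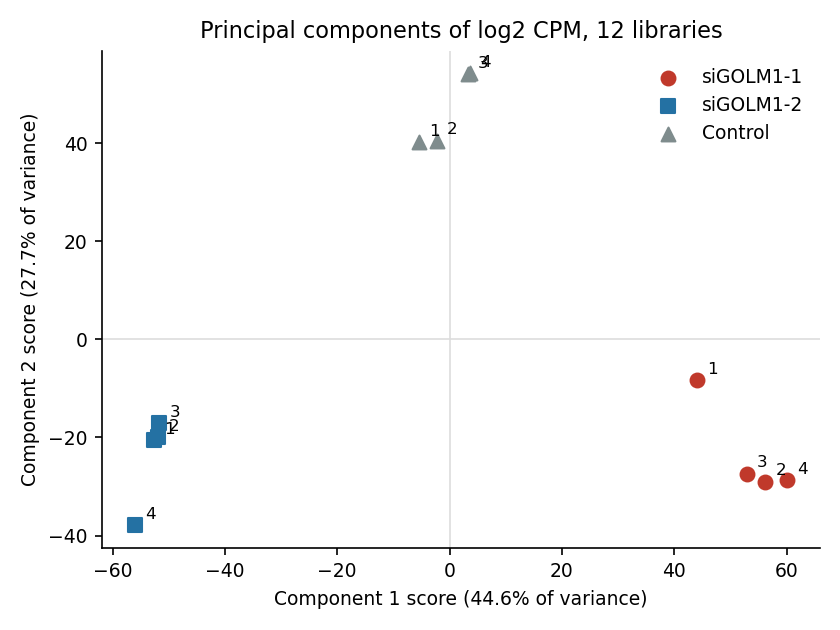
Scores of the 12 libraries on the first (horizontal) and second (vertical) principal components of log2 CPM, with replicate numbers beside the points. The siGOLM1-1 libraries lie at 44 to 60.1 on component 1, the siGOLM1-2 libraries at -56 to -51.7, and the control libraries between them and higher on component 2.

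Most genes tested differed between the siRNAs. At an adjusted p under 0.05, 9240 of 17074 genes (54.1%) were called, 4435 (26.0%) higher with siGOLM1-1 and 4805 (28.1%) higher with siGOLM1-2. In the fit of all 12 libraries, siGOLM1-1 differed from control in 8333 of 17532 genes (47.5%) and siGOLM1-2 in 7885 (45.0%). A log2 difference of at least 1 was reached by 1092 genes (6.4%) higher with siGOLM1-1 and 1669 (9.78%) higher with siGOLM1-2. At 3 or more, the numbers were 38 and 140. The median absolute log2 difference of called genes was 0.69, and the median standard error over all genes was 0.13. The libraries of the siRNA groups did not overlap for 8388 genes (49.1%). Without replicate 1 of siGOLM1-1 and replicate 4 of siGOLM1-2, 10444 genes were called. Leaving out both, here and for CCL2 and MUC5B below, was chosen after they were seen to stand apart. With scaling by library totals alone, calls were 3497 higher with siGOLM1-1 and 5823 higher with siGOLM1-2, and the median log2 difference of all genes moved from -0.01 to -0.11. Of the 2110 genes averaging 100 CPM or more, 797 (37.8%) were higher with siGOLM1-1 and 443 (21.0%) with siGOLM1-2. Among genes under 1 CPM the counts were 500 (15.6%) and 806 (25.1%) of 3210.

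**Figure D2:**
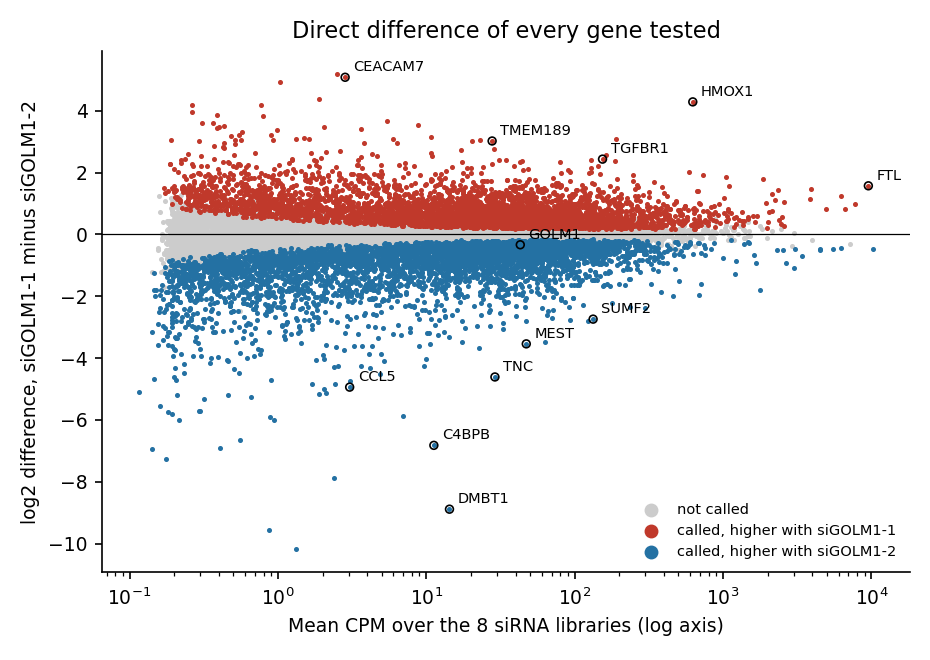
Log2 difference, siGOLM1-1 minus siGOLM1-2 (vertical), against the mean CPM of the 8 siRNA libraries (horizontal, log axis) for the 17074 genes tested. Red points are the 4435 genes called higher with siGOLM1-1, blue points the 4805 called higher with siGOLM1-2, grey points were not called, and circles mark named genes such as DMBT1 at -8.89 and HMOX1 at 4.29.

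Because seeds act through short matches in 3′ UTRs, every 7-base word in the sense strand of each gene's longest annotated 3′ UTR (GENCODE 29) was ranked by the median log2 difference of the genes that hold it minus that of all other genes. The ranking covered 15341 words held by at least 200 genes, over 13695 protein-coding genes tested. The words at its ends were chosen from the differences themselves, so their values are a description without a test. The lowest word was ACTCTGA, held by 2055 of the 13695 genes (15%). Its holders had a median of -0.20 and the other genes 0.02, and 42.1% of holders were called lower with siGOLM1-1 against 27.6% of other genes. The highest word was AAGTCTA, held by 1296 genes (9.46%). Its holders had a median of 0.14 and the others -0.02, and 40.4% of holders were called higher with siGOLM1-1 against 26.3%. The words next in rank, CACTCTG and AGTCTAA, overlap the leading words by 6 bases. Among words of 8 bases the leaders were CACTCTGA (567 genes, holders minus others -0.31) and AAGTCTAA (415 genes, 0.24).

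Each of these 8-base words occurred once in the 3046 bases of the transcript GOLM1-203. CACTCTGA spans positions 1368 to 1375 and ends with the last base before the annotated 3′ UTR, and AAGTCTAA spans positions 1944 to 1951 in the 3′ UTR. Over all 19480 annotated 3′ UTRs, CACTCTGA was found in 724 (3.72%) and AAGTCTAA in 522 (2.68%). These shares are for 3′ UTRs alone, whereas GOLM1-203 was searched along its whole length. They do not give how often a whole transcript holds either word. The windows below show the GOLM1 site above sites of the 6 holders with the smallest p among those called in that direction, except COPS8, whose window is not printed because its site lies at an end of the annotated 3′ UTR. Capitals mark the 8-base word or, where only that matched, the 7-base word, and all are sense strands from GENCODE 29 transcripts (GRCh38).
GOLM1, first site: aaaagcggaatcataCACTCTGAat
SUMF2: acaattggaacagagCACTCTGAaa
SIDT1: ctgtgtggacctcatCACTCTGAct
MEST: gaaactttaagaacaaACTCTGAaa
HTRA1: aattgggagcacgatgACTCTGAgt
C1QTNF1: cccatggccaccccagACTCTGAtc
GOLM1, second site: agtagcaacagctttAAGTCTAAat
KIAA1191: ctaagagagaaaattAAGTCTActg
TMEM189: tggaacctcctgctcAAGTCTAgac
SNX17: ttagtattttgcacaAAGTCTAAgg
HBP1: gatgcttatgttcttAAGTCTAtat
NRBP1: ttgctgctgtaataaAAGTCTActt
PRRC1: ctttccacaggctcaAAGTCTAAct
Outside the capitals the windows differ. Counting the capitals, the 5 windows of the first set have 12 (C1QTNF1) to 16 (SUMF2) of their 25 bases in common with the GOLM1 window, and the 6 of the second set 9 (NRBP1) to 15 (PRRC1). Guide sequences of the siRNAs were not used here. Whether these words are seed matches of the siRNAs was not tested.

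Against control, the holders of each word were low under one siRNA. The median of ACTCTGA holders was -0.15 with siGOLM1-1 and 0.01 with siGOLM1-2, and other genes were at 0.03 and -0.001. For AAGTCTA holders the medians were -0.01 with siGOLM1-1 and -0.16 with siGOLM1-2, against 0.01 and 0.02 for other genes. These comparisons share the control libraries. By library, with each gene centred on the 8 siRNA libraries, ACTCTGA holders minus other genes were -0.03, -0.14, -0.09 and -0.16 with siGOLM1-1 and 0.10, 0.13, 0.14 and 0.06 with siGOLM1-2. AAGTCTA holders were at 0.20, 0.07, 0.14 and 0.00 with siGOLM1-1 and at -0.10, -0.06, -0.06 and -0.16 with siGOLM1-2. The siRNA groups did not overlap for either word. That is no test, because the words were chosen by the difference between these same groups. Control libraries lay at 0.06 to 0.15 for ACTCTGA and 0.06 to 0.17 for AAGTCTA. Without replicate 1 of siGOLM1-1 the value of AAGTCTA was 0.14 and another word, TTGCGAT, ranked highest.

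Holders of 2 copies differed more than holders of 1 copy, though the words were chosen from these same differences. For ACTCTGA the class with 3 or more copies hardly differed from that with 2. For ACTCTGA the median log2 difference was -0.19 for 1742 genes with 1 copy, -0.25 for 251 with 2 copies and -0.26 for 62 with 3 or more. For AAGTCTA it was 0.13 for 1146 genes, 0.17 for 131 and 0.39 for 19, the last class being small. Against control, the medians of the ACTCTGA classes were -0.138, -0.19 and -0.241 with siGOLM1-1, and 0.017, 0.012 and -0.06 with siGOLM1-2. Those of the AAGTCTA classes were -0.155, -0.288 and -0.074 with siGOLM1-2, and -0.003, -0.074 and 0.141 with siGOLM1-1. The AAGTCTA class with 3 or more copies was thus not the lowest with siGOLM1-2. Holders had longer 3′ UTRs (medians 3223 and 3380.5 bases) than other genes (1413 and 1483 bases). With the genes divided by 3′ UTR length into 3 classes of near-equal size, from shortest to longest, ACTCTGA holders minus others were -0.35, -0.27 and -0.20, and AAGTCTA holders minus others 0.38, 0.22 and 0.14. No mature human miRNA of 2370 in RefSeq has a seed (bases 2 to 8, in capitals below) that pairs with a leading word. The second-ranked words pair with the seeds of 1 miRNA each.
hsa-miR-759: gCAGAGUGcaaacaauuuugac
hsa-miR-7702: cUUAGACUgccagacucccuga

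**Figure D3:**
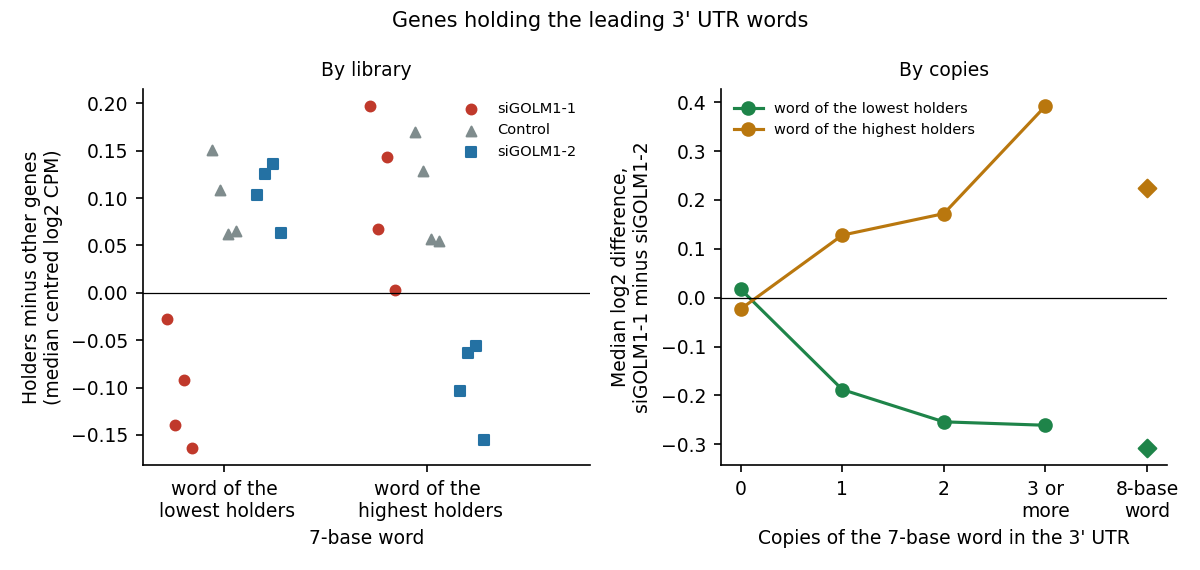
Left, median centred log2 CPM of word holders minus other genes in each library, for ACTCTGA (lowest holders) and AAGTCTA (highest holders); right, median log2 difference of genes by copies of the word, with diamonds for the 8-base word. ACTCTGA holders lie below 0 only in the siGOLM1-1 libraries, and AAGTCTA holders only in the siGOLM1-2 libraries. Both words were chosen by the difference between these siRNA groups.

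Among holders of ACTCTGA called lower with siGOLM1-1, at 5 CPM or more, those with the smallest p were SUMF2, SIDT1, MEST, HTRA1, C1QTNF1 and COPS8. Their direction was thus fixed by the choice, and 20.6% of all ACTCTGA holders were called higher with siGOLM1-1. SUMF2, an endoplasmic reticulum protein related to the sulfatase-activating enzyme, was at 34.1, 36.4, 35.2 and 35.4 CPM with siGOLM1-1 and 234, 233, 233 and 222 CPM with siGOLM1-2, between which control lay at 154 to 160 CPM (log2 difference -2.74 ± 0.06 (SE), adjusted p = 1.98e-09, edgeR). COPS8, a subunit of the COP9 signalosome, stood at 7.27, 8.47, 8.69 and 7.67 CPM with siGOLM1-1, and at 42.8, 44.7, 43.3 and 47.9 CPM with siGOLM1-2, with control above both at 49.2 to 58.6 CPM. MEST, an imprinted gene of the hydrolase fold, was 6.67 to 9.02 CPM with siGOLM1-1, 82.1 to 95.8 CPM with siGOLM1-2 and 70.1 to 71.6 CPM in control, a 11.6-fold difference. Against control, SUMF2, COPS8 and MEST differed by -2.15, -2.72 and -3.22 with siGOLM1-1 and by 0.56, -0.25 and 0.29 with siGOLM1-2. SIDT1, HTRA1 (a secreted serine protease) and C1QTNF1 differed by -3.46, -2.06 and -2.06, and with siGOLM1-2 they were above control as well (1.29, 1.07 and 1.10).

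Among holders of AAGTCTA called higher with siGOLM1-1, at 5 CPM or more, those with the smallest p were KIAA1191, TMEM189, SNX17, HBP1, NRBP1 and PRRC1. Their direction too was fixed by the choice, and 23.4% of all AAGTCTA holders were called lower with siGOLM1-1. KIAA1191 was at 131, 140, 134 and 127 CPM with siGOLM1-1, in the range of control (109 to 133 CPM), and at 26.1, 26.2, 26.2 and 24.3 CPM with siGOLM1-2 (log2 difference 2.34 ± 0.07 (SE), adjusted p = 8.43e-09, edgeR). SNX17, a sorting nexin that recycles LDL receptor family members from endosomes, was at 133 to 162 CPM with siGOLM1-1, 33.6, 33.7, 34 and 33.8 CPM with siGOLM1-2 and 151 to 179 CPM in control. NRBP1, a pseudokinase, and PRRC1 were 3.88-fold and 3.37-fold lower with siGOLM1-2, and their differences from control were -1.79 and -1.67 with siGOLM1-2 and 0.20 and 0.11 with siGOLM1-1. KIAA1191 and SNX17 differed from control by -2.23 and -2.27 with siGOLM1-2 and by 0.14 and -0.17 with siGOLM1-1. SNX17 and PRRC1 also hold 1 copy of ACTCTGA each. TMEM189 was at 43, 52.5, 51.7 and 51.2 CPM with siGOLM1-1 and 5.91, 5.98, 6.3 and 5.67 CPM with siGOLM1-2, and its reads may be shared with a read-through transcript into its neighbour. HBP1, a transcriptional repressor, differed by 1.82 and was on the other side of control under each siRNA (1.30 and -0.55).

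Among called genes that averaged 5 CPM or more under one siRNA and did not overlap between the siRNA groups, the largest differences were towards siGOLM1-2. DMBT1, a secreted mucosal scavenger receptor, had 13 counts over the 4 siGOLM1-1 libraries (0, 0.132, 0.122 and 0 CPM) and 28.8, 27.7, 33.1 and 25 CPM with siGOLM1-2 (log2 difference -8.89 ± 0.38 (SE), adjusted p = 6.12e-08, edgeR; -9.54 without replicate 2 of siGOLM1-1). C4BPB, the beta chain of the complement inhibitor C4b-binding protein, was at 0.256, 0.188, 0.203 and 0.127 CPM and 15.7, 18, 15.5 and 40.1 CPM. Control held 0.148 to 0.553 CPM of DMBT1 and 0.481 to 1.12 CPM of C4BPB, so both were low in control too. DCLK1, a microtubule-associated kinase, was at 0.169 to 0.365 CPM with siGOLM1-1 and 12.2 to 17.6 CPM with siGOLM1-2. CCL5, a chemokine for T cells, was at 0.242, 0.245, 0.0608 and 0.212 CPM and 4.66, 5.54, 5.66 and 7.75 CPM. TNC, the matrix protein tenascin-C, was at 2.32, 2.65, 1.92 and 2.39 CPM with siGOLM1-1, 52, 48, 55.6 and 67.3 CPM with siGOLM1-2 and 10.5, 8.18, 12.5 and 13.8 CPM in control, a 24.4-fold difference. The lack of overlap in these genes was a condition of their choice, and 49.1% of all genes tested met it.

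Under those limits, the 12 largest differences in that direction also included S100A9 (-4.73), a calcium-binding protein of inflamed tissue, OASL (-4.52), SERPINA5 (-4.27), ANKRD22 (-4.24), CDH3 (-4.10), which encodes P-cadherin, and TFF1 (-4.04). SAA1, an acute-phase protein, was at 0.341, 0.395, 0.689 and 0.212 CPM with siGOLM1-1 and 3.63, 4.69, 3.5 and 20 CPM with siGOLM1-2. Its log2 difference of -4.31 was -3.30 without replicate 4 of siGOLM1-2, the library with the highest value. SAA1 has a near-identical neighbour, SAA2, so its counts may be split.

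Among genes higher with siGOLM1-1, HMOX1 combined a large difference with a high count. HMOX1, the haem-degrading enzyme haem oxygenase 1, was at 891, 1388, 1087 and 1399 CPM with siGOLM1-1 and 56.8, 59.5, 63.1 and 59.1 CPM with siGOLM1-2, with control between them at 259, 269, 306 and 305 CPM (log2 difference 4.29 ± 0.15 (SE), adjusted p = 1.01e-08, edgeR). CEACAM7, a cell-surface adhesion molecule, was at 4.08, 6.59, 4.44 and 6.99 CPM and 0.0605, 0.169, 0.333 and 0.0597 CPM, and its log2 difference of 5.09 was 5.72 without replicate 3 of siGOLM1-2. NPR1, a receptor for natriuretic peptides, was at 19, 49, 45 and 52.5 CPM with siGOLM1-1 and 4.46, 4.74, 4.17 and 6.16 CPM with siGOLM1-2, while control was at 3.46 to 3.91 CPM. FSTL3, a secreted activin inhibitor, was at 241, 403, 311 and 402 CPM and 38.7, 38.6, 39.9 and 37.7 CPM. These genes were chosen under the same limits, so that every siGOLM1-1 library was above every siGOLM1-2 library followed from the choice.

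Under the same limits, the remaining genes among the 12 largest in that direction were C10orf10 (3.66), COX6B2 (3.53), a subunit of cytochrome c oxidase, TF (3.42), which encodes transferrin, CRYAB (3.16), a small heat shock protein, TMEM130 (3.10), C1QL1 (3.01) and PSG4 (2.97), together with TMEM189. Replicate 1 of siGOLM1-1 was the lowest of its group for C10orf10, at 2.94 CPM against 11.8 to 12.9 CPM. PSG4 belongs to a family of near-identical genes, and its value was 3.61 without replicate 4 of siGOLM1-2.

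**Figure D4:**
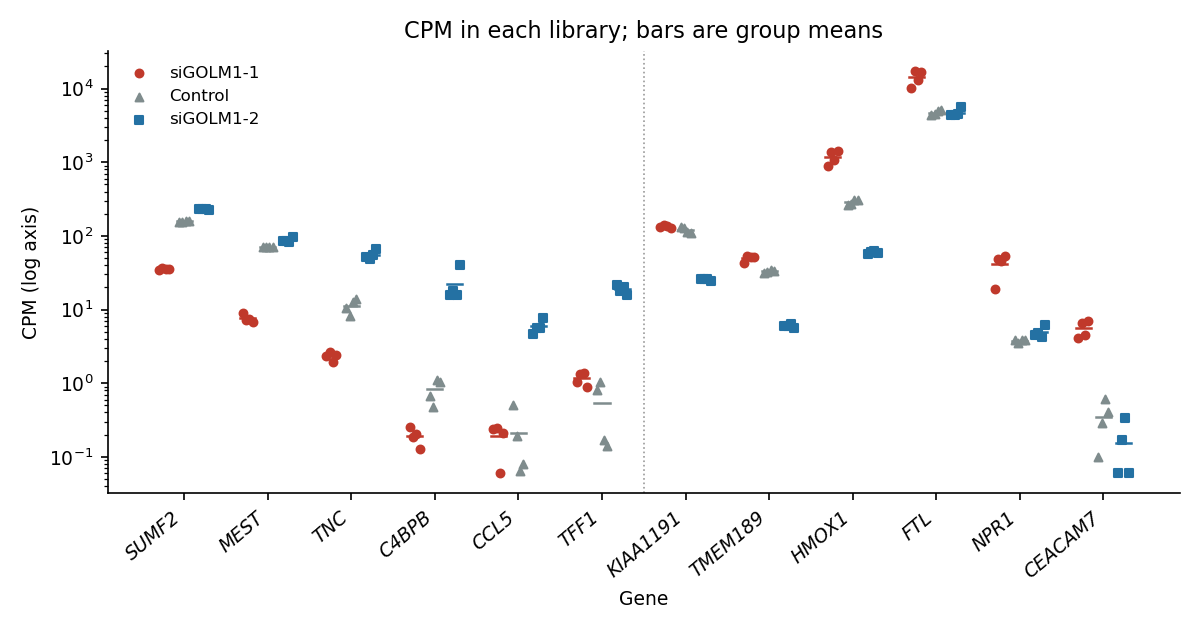
CPM (vertical, log axis) of 12 named genes in the 4 siGOLM1-1, 4 control and 4 siGOLM1-2 libraries, with a bar at each group mean. The 6 genes left of the dotted line were lower and the 6 on its right higher with siGOLM1-1; SUMF2 and MEST are lowest under siGOLM1-1, and KIAA1191 and TMEM189 lowest under siGOLM1-2.

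Some called genes had the siRNA groups on opposite sides of all 4 control libraries. In 580 (3.4% of genes tested) siGOLM1-1 was above and siGOLM1-2 below control, and in 567 (3.32%) the reverse. HMOX1, TF, FSTL3, TMEM189 and C1QL1 were above control with siGOLM1-1 and below it with siGOLM1-2. TNC, SERPINA5, ANKRD22, DMBT1 and C4BPB were the reverse. MAFK, a small MAF partner of NRF2, was at 260, 219, 278 and 366 CPM with siGOLM1-1, 50.2, 45.9, 50.1 and 37.4 CPM with siGOLM1-2 and 104, 132, 61.6 and 64.6 CPM in control. KLB, the co-receptor beta-klotho, and ABI3BP, a matrix protein, differed in the same direction (2.95 and 2.61). NPNT, a ligand of an integrin, was at 0.565 to 0.754 CPM with siGOLM1-1, 7.77 to 10.1 CPM with siGOLM1-2 and 4.32 to 6.2 CPM in control. MX1, an interferon-induced antiviral GTPase, and EMR2, an adhesion G protein-coupled receptor, differed by -3.62 and -3.60.

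The interferon-stimulated genes were the most one-sided of the larger lists. Of 39 members tested, 32 were called higher with siGOLM1-2 and 1 higher with siGOLM1-1, with a median log2 difference of -1.09. Over all genes tested the shares were 28.1% and 26.0% and the median was -0.01. Counts for each list below are to be read against these shares. OAS2, which makes the 2′,5′-oligoadenylate that activates RNase L, was at 0.0996, 0.169, 0.101 and 0.106 CPM with siGOLM1-1 and 3.03, 4.93, 3.05 and 5.53 CPM with siGOLM1-2, and control was at 0.28, 0.481, 0.0635 and 0.0403 CPM. IFI44L was at 0.0427, 0.0188, 0.0203 and 0.0212 CPM with siGOLM1-1, 1.53, 2.4, 1.76 and 1.73 CPM with siGOLM1-2 and 0.22, 0.337, 0.847 and 1.27 CPM in control. IFI44 (-3.58), IFITM1 (-2.70) and OASL differed in the same direction. IFI44L had 6 counts over the 4 siGOLM1-1 libraries, and IFITM1 was at 2.92 to 3.64 CPM with siGOLM1-2. Against control, the list's median was -0.19 with siGOLM1-1 and 1.01 with siGOLM1-2.

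Among 13 genes of nucleic acid sensing, 6 were called higher with siGOLM1-2 and 0 higher with siGOLM1-1 (median -0.31). TLR4, the lipopolysaccharide receptor, was at 2.77 to 3.97 and 6.11 to 6.55 CPM, and the DNA sensor IFI16 at 12.5 to 17.8 and 21.5 to 38.1 CPM. TMEM173, which encodes STING, was not called in the fit of the 8 libraries (log2 difference 0.79 ± 0.32 (SE), adjusted p = 0.0597, edgeR). It was 3.66, 7.53, 6.48 and 8.32 CPM with siGOLM1-1, 2.81, 2.67, 2.86 and 6.4 CPM with siGOLM1-2 and 0.148 to 0.34 CPM in control, and without replicate 4 of siGOLM1-2 the log2 difference was 1.19 with an adjusted p of 0.00192.

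HLA class I and peptide-loading genes had 11 of 20 called higher with siGOLM1-2 and 3 higher with siGOLM1-1 (median -0.34). B2M, the light chain of class I molecules, was at 172, 248, 241 and 206 CPM and 411, 432, 422 and 572 CPM, and control was at 225, 221, 251 and 229 CPM. TAP1, part of the peptide transporter, was at 48.9 to 52.1 and 86.5 to 118 CPM, and NLRC5, the class I transactivator, at 8.48 to 11.2 and 19.6 to 20.3 CPM. The siGOLM1-1 libraries overlapped control for these 3 genes and the siGOLM1-2 libraries were above it. HLA genes resemble each other, and the counts of single members may be split.

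Of 18 cytokines and chemokines tested, 10 were called higher with siGOLM1-2 and 4 higher with siGOLM1-1 (median -0.48). CXCL5, a neutrophil chemokine, was at 93.9, 67.2, 98.2 and 55.5 CPM with siGOLM1-1 and 340, 353, 348 and 518 CPM with siGOLM1-2 (log2 difference -2.34 ± 0.20 (SE), adjusted p = 5.51e-06, edgeR). CCL2, a monocyte chemokine, was at 1.82, 4.16, 3.59 and 3.24 and 13.6, 14.8, 10.8 and 31.4 CPM, and its difference of -2.50 was -1.84 without both libraries that stood apart. IL6 was at 0.384, 0.527, 0.912 and 0.445 CPM and 3.55, 3.71, 2.43 and 17.4 CPM. Replicate 4 of siGOLM1-2 was far above its group for IL6, and without it the difference was -2.56 in place of -3.62. IL11, a cytokine of the IL6 family, was higher with siGOLM1-1, at 133, 144, 130 and 165 CPM against 40.9, 44, 38.6 and 46.4 CPM. The control libraries were split for IL11, at 105, 105, 26.5 and 26.2 CPM.

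Complement genes had 10 of 17 called higher with siGOLM1-2 and 3 higher with siGOLM1-1 (median -0.92). Those with the smallest p all restrain complement. CD59, which blocks the membrane attack complex, was at 269, 278, 279 and 236 CPM and 685, 726, 676 and 878 CPM. CD55, which dissociates the C3 convertase, was at 70.3 to 93.7 and 173 to 241 CPM, and C4BPA, the alpha chain of C4b-binding protein, at 6.33 to 11.4 and 41.7 to 60.6 CPM. Of 19 genes of the NF-kB pathway, 8 were called higher with siGOLM1-2 and 3 higher with siGOLM1-1, and BIRC3, a ubiquitin ligase and target of the pathway, was at 14.7, 17, 30.8 and 11.3 and 51.7, 58.4, 52 and 118 CPM. The NF-kB list's median of -0.13 was 0.04 without replicate 4 of siGOLM1-2.

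Mucins, trefoil peptides and other mucosal secretory genes had 10 of 16 called higher with siGOLM1-2 and 1, LCN2, higher with siGOLM1-1 (median -0.76). TFF1, a trefoil peptide, was at 1.05, 1.34, 1.38 and 0.889 CPM and 21.5, 18, 19.9 and 15.6 CPM (log2 difference -4.04 ± 0.16 (SE), adjusted p = 2.9e-08, edgeR). MUC2, a gel-forming mucin, was at 2.2, 1.32, 1.38 and 1.08 and 13.2, 11.4, 15.5 and 5.37 CPM, and MUC1, a membrane mucin, at 6.83 to 8.05 and 16.3 to 22 CPM. MUC5B, another gel-forming mucin, varied more, at 543, 249, 160 and 195 CPM and 1296, 1105, 1554 and 427 CPM. For MUC5B replicate 1 of siGOLM1-1 was above replicate 4 of siGOLM1-2, and the difference of -1.96 was -2.72 without these libraries. LCN2, a secreted siderophore-binding protein, was at 34.7 to 46.9 and 12.2 to 18.7 CPM. Of 5 CEACAM genes, CEACAM7 and CEACAM5 (1.75) were called higher with siGOLM1-1, and CEACAM1 (-1.13) and CEACAM19 (-0.46, adjusted p = 0.0369, edgeR) higher with siGOLM1-2. CEACAM19 lost its call in 5 of the 8 fits that left out 1 library (adjusted p 0.0733 to 0.121).

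**Figure D5:**
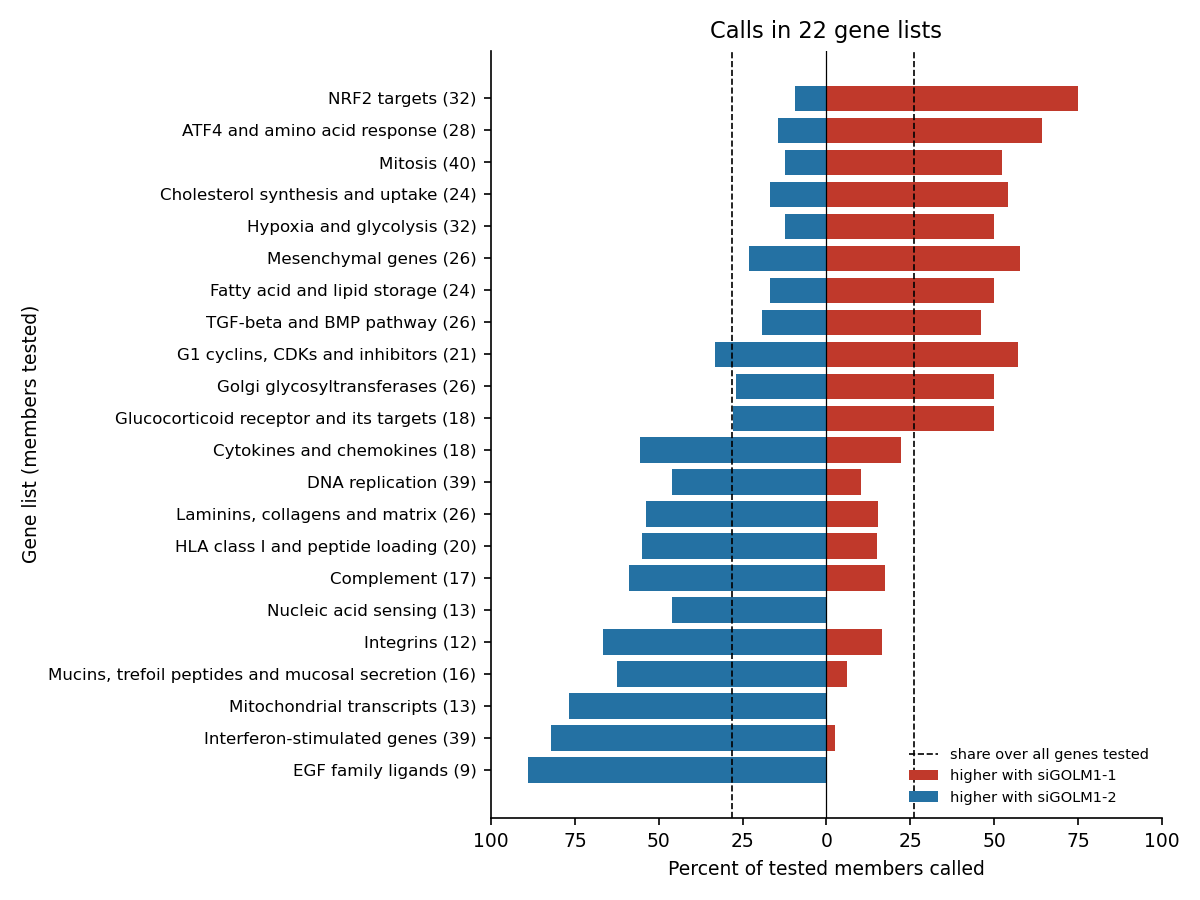
Percent of the tested members of 22 gene lists called higher with siGOLM1-2 (blue, left) or higher with siGOLM1-1 (red, right), with the number tested in parentheses. These are the 11 lists leaning most to each side among those with at least 9 members tested; the dashed lines are the shares over all genes, 28.1% and 26.0%, and the interferon-stimulated genes and the NRF2 targets lean to opposite sides.

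EGF family ligands, integrins and matrix genes leaned to siGOLM1-2. Of 9 EGF family ligands, 8 were called higher with siGOLM1-2 and 0 higher with siGOLM1-1 (median -0.90). TGFA, a ligand of the EGF receptor, was at 4.11, 5.42, 6.89 and 4.17 CPM and 37.7, 36.6, 33.2 and 47.7 CPM (log2 difference -2.95 ± 0.17 (SE), adjusted p = 2.99e-07, edgeR), and NRG1, a ligand of ERBB3 and ERBB4, at 75.2 to 110 and 162 to 193 CPM. MET, the receptor of hepatocyte growth factor, was at 98.8, 99, 109 and 82.7 CPM with siGOLM1-1, 471, 515, 475 and 542 CPM with siGOLM1-2 and 298, 276, 252 and 245 CPM in control. Of 18 receptor tyrosine kinases in all, 5 (27.8%) were called higher with siGOLM1-2 and 6 (33.3%) higher with siGOLM1-1, near the shares of all genes. Integrins had 8 of 12 called higher with siGOLM1-2 and 2 higher with siGOLM1-1 (median -0.58). ITGA3, a laminin-binding integrin subunit, was at 317, 342, 420 and 355 and 1037, 1015, 984 and 1189 CPM, and the subunits ITGB4 and ITGA2 differed by -0.82 and -0.95. Laminins, collagens and other matrix genes had 14 of 26 called higher with siGOLM1-2 and 4 higher with siGOLM1-1 (median -0.42), among them LAMB3 (-2.02), LAMA4 (-3.86) and TNC.

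Mesenchymal genes had 15 of 26 called higher with siGOLM1-1 and 6 higher with siGOLM1-2 (median 0.52). SNAI1, a transcriptional repressor of E-cadherin, was at 7.62, 11.3, 10.5 and 14.2 CPM with siGOLM1-1 and 2.18, 2, 1.55 and 3.32 CPM with siGOLM1-2. TGFBI, a secreted matrix protein induced by TGF-beta, was at 2773 to 3774 and 1361 to 1442 CPM. TGFBR1, the type I TGF-beta receptor, was at 241, 278, 272 and 254 CPM with siGOLM1-1 and 45.1, 52.5, 47.7 and 43.6 CPM with siGOLM1-2 (log2 difference 2.44 ± 0.08 (SE), adjusted p = 9.75e-09, edgeR), while control was split at 91.7, 96.1, 224 and 215 CPM. In the TGF-beta and BMP list 12 of 26 genes were called higher with siGOLM1-1 and 5 higher with siGOLM1-2 (median 0.17), including ID2 (1.69). PLAU, the urokinase plasminogen activator, was at 220, 353, 330 and 360 and 54.7, 55.3, 56.2 and 70.8 CPM. The siRNA groups did not overlap for PLAU, as for 49.1% of all genes tested. Among YAP and TEAD genes AXL was higher (1.67) and WWTR1, which encodes TAZ, lower (-1.63) with siGOLM1-1.

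All 11 keratins tested were called, 7 higher with siGOLM1-2 and 4 higher with siGOLM1-1. KRT8 was at 2144, 1858, 1636 and 1842 CPM with siGOLM1-1 and 3426, 3517, 3556 and 3345 CPM with siGOLM1-2, and its filament partner KRT18 at 826 to 974 and 1468 to 1642 CPM. KRT7 went the other way, at 2313, 2739, 2641 and 2787 CPM and 1157, 1233, 1138 and 1584 CPM. Of 25 epithelial junction genes, 10 were called higher with siGOLM1-2 and 5 higher with siGOLM1-1. CLDN2, a pore-forming claudin, was at 182, 175, 156 and 166 and 662, 633, 671 and 425 CPM, and JUP, which encodes plakoglobin, at 837 to 1028 and 384 to 496 CPM.

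Targets of NRF2, the transcription factor of the oxidative defence, leaned most to siGOLM1-1. Of 32 tested, 24 were called higher with siGOLM1-1 and 3 higher with siGOLM1-2, with a median of 0.63. TXNRD1, thioredoxin reductase, was at 2706, 3250, 3422 and 2907 CPM with siGOLM1-1 and 1157, 1245, 1167 and 1305 CPM with siGOLM1-2 (log2 difference 1.30 ± 0.09 (SE), adjusted p = 9.66e-07, edgeR). TKT, transketolase, was at 2878 to 3980 and 1129 to 1323 CPM. GCLM, a subunit of the enzyme that starts glutathione synthesis, was at 269 to 338 and 136 to 146 CPM. For TXNRD1 and GCLM the siGOLM1-2 libraries overlapped the range of control (1089 to 1264 and 115 to 157 CPM), and for TKT they lay below it (1774 to 2235 CPM).

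Genes with the most counts among those with a log2 difference of at least 1 included both chains of ferritin, the iron store. FTL was at 10322, 17366, 13194 and 16525 CPM with siGOLM1-1, 4318, 4363, 4500 and 5700 CPM with siGOLM1-2 and 4345, 4441, 4966 and 5141 CPM in control. FTH1 was at 6838, 9706, 9070 and 9720 and 3415, 3521, 3189 and 4486 CPM. ACTG1 and ACTB, the cytoplasmic actins, were 2.77-fold and 2.22-fold higher with siGOLM1-1, and the aldo-keto reductase AKR1C2 2.06-fold. Higher with siGOLM1-2 were AKR1B10, another aldo-keto reductase, at 1737 to 2198 and 3853 to 4155 CPM, the transglutaminase TGM2 at 902, 797, 739 and 796 and 2654, 2695, 2555 and 3020 CPM, and CTSB, the lysosomal protease cathepsin B, at 481, 818, 734 and 825 and 1586, 1630, 1529 and 2101 CPM. Both actins, ferritin genes and aldo-keto reductases have close copies or pseudogenes between which reads may be split.

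Genes of the amino acid response under ATF4 had 18 of 28 called higher with siGOLM1-1 and 4 higher with siGOLM1-2 (median 0.62). VLDLR, a lipoprotein receptor, was at 176 to 218 and 42.8 to 52.4 CPM, with control at 88.6 to 90.2 CPM. MTHFD2, a mitochondrial folate enzyme, was at 179, 231, 222 and 163 and 56.5, 62.8, 56.2 and 70.4 CPM, and ASNS, asparagine synthetase, at 47.4 to 62 and 26.1 to 28.9 CPM. In these 3 genes siGOLM1-1 was above and siGOLM1-2 below the control libraries. The unfolded protein response was divided, with 7 of 21 called higher with siGOLM1-1 and 4 higher with siGOLM1-2 (median 0.09, or -0.01 with scaling by library totals alone). HSPA5, the chaperone BiP, was at 846, 1265, 1180 and 1291 and 546, 563, 575 and 682 CPM, while the chaperone HYOU1 was at 61.5, 80.5, 71.9 and 79.5 and 199, 192, 196 and 203 CPM. Cholesterol genes had 13 of 24 called higher with siGOLM1-1 and 4 higher with siGOLM1-2 (median 0.25), with INSIG1, which retains the SREBP complex, at 160 to 231 and 56.4 to 86 CPM. SREBF1 was at 516 to 688 and 215 to 264 CPM. In the hypoxia and glycolysis list 16 of 32 were called higher with siGOLM1-1 and 4 higher with siGOLM1-2 (median 0.25), among them SLC2A1, the glucose transporter GLUT1 (0.86), and PFKFB4 (1.30).

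Cell-cycle genes differed in both directions. Of 40 mitotic genes, 21 were called higher with siGOLM1-1 and 5 higher with siGOLM1-2 (median 0.44). Against control, the mitosis list's median was -0.49 with siGOLM1-1 and -0.92 with siGOLM1-2. MAD2L1, a spindle checkpoint protein, was at 36, 29, 28.7 and 19.1 CPM with siGOLM1-1, 7.08, 7.91, 6.93 and 6.04 CPM with siGOLM1-2 and 47.8, 48.2, 36.4 and 33 CPM in control (log2 difference 1.98 ± 0.18 (SE), adjusted p = 4.59e-06, edgeR). AURKA, the mitotic kinase Aurora A, went the other way, at 30.4, 24.6, 25.1 and 19.3 CPM with siGOLM1-1, 60.8, 74, 62.3 and 56.6 CPM with siGOLM1-2 and 168, 163, 131 and 127 CPM in control. TPX2, the spindle protein that activates AURKA, was at 47.9 to 77.4 and 95.5 to 129 CPM. DNA replication genes had 18 of 39 called higher with siGOLM1-2 and 4 higher with siGOLM1-1 (median -0.21), among them RFC2 (-0.99) and MCM3 (-0.76). Of 21 G1 cyclins, kinases and inhibitors, 12 were called higher with siGOLM1-1 and 7 higher with siGOLM1-2. CCND1, cyclin D1, was at 508 to 636 and 207 to 240 CPM, and CDK2 at 24.2 to 27.2 and 51 to 57.6 CPM. Among p53 targets CCNG1 (2.01) and CDKN1A (0.82), which encodes p21, were higher with siGOLM1-1, and FAS (-2.79), a death receptor, higher with siGOLM1-2. The p53 list had 11 of 28 called higher with siGOLM1-1 and 8 higher with siGOLM1-2.

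The Golgi lists were less one-sided. Of 28 Golgi structure proteins, 8 were called higher with siGOLM1-1, 3 higher with siGOLM1-2 and 17 were not called (median 0.06, or -0.04 with scaling by library totals alone). TMED10, a cargo receptor of early Golgi vesicles, was at 360, 399, 416 and 343 CPM and 129, 137, 137 and 128 CPM. TGOLN2, of the trans-Golgi network, was at 254 to 328 and 83.6 to 112 CPM, against 318 to 399 CPM in control, and LMAN1, which carries glycoproteins out of the endoplasmic reticulum, at 97.1 to 144 and 51.7 to 61.7 CPM. GBF1, an ARF exchange factor, was at 68.6, 56.1, 52.5 and 58.3 and 138, 132, 138 and 133 CPM. Of 28 coat and Golgi transport genes, 15 were not called, 4 were higher with siGOLM1-1 and 9 higher with siGOLM1-2. Golgi glycosyltransferases had 13 of 26 called higher with siGOLM1-1 and 7 higher with siGOLM1-2 (median 0.28). Members that start mucin-type O-glycans went both ways, with GALNT6 at 14.6 to 18.7 and 4.72 to 5.05 CPM and GALNT5 at 8.89 to 14.6 and 52.3 to 65.1 CPM. CASC4, the paralog of GOLM1, was at 107, 102, 123 and 89.9 CPM with siGOLM1-1, 147, 160, 159 and 136 CPM with siGOLM1-2 and 103, 102, 90.2 and 87.4 CPM in control. Of the proprotein convertases, which cut secretory proteins in the Golgi, PCSK6 was at 24.6, 22.1, 24.7 and 20.3 and 122, 118, 126 and 119 CPM, and PCSK7 and PCSK5 differed by -1.11 and -1.14.

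Ribosomal protein genes were mostly not called (25 of 36, median 0.04, or -0.06 with scaling by library totals alone). RPS27 was an exception, at 180, 221, 161 and 188 CPM with siGOLM1-1, 719, 688, 694 and 811 CPM with siGOLM1-2 and 552, 507, 591 and 615 CPM in control. RPS27 holds 1 copy of the word CACTCTGA in its annotated 3′ UTR, but ribosomal protein genes without a leading word also include a call lower with siGOLM1-1. Whether the word bears on the level of RPS27 was not tested. RPL4 differed by 0.45. Of 33 nuclear genes of the respiratory chain, 24 were not called. The 13 transcripts encoded in the mitochondrion were called higher with siGOLM1-2 in 10 cases and 0 higher with siGOLM1-1 (median -0.49), with MT-CYB at 2319, 1987, 3190 and 3062 and 4523, 3530, 5319 and 3219 CPM. MT-CYB was the 1 transcript of the 13 for which the siRNA groups did not overlap, against 49.1% of all genes tested. Differences in the number of mitochondria and in RNA per mitochondrion cannot be told apart in bulk RNA, and the same holds for cells of a type and RNA per cell.

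Other genes chosen from earlier results also differed between the siRNAs. RASD1, a small G protein, was at 19.8, 30.6, 31.8 and 36.9 CPM with siGOLM1-1, 5.13, 3.93, 4.85 and 3.42 CPM with siGOLM1-2 and 0.36 to 1.68 CPM in control. C12orf39 was at 1.52 to 2.37 and 18.2 to 20.2 CPM and C1orf116 at 2.01 to 2.97 and 21.2 to 29.6 CPM. METTL7A was at 0.498, 0.207, 0.122 and 0.0635 and 2.34, 2.69, 2.66 and 1.15 CPM, and its difference of -3.23 was -4.04 without replicate 1 of siGOLM1-1. MAP2, a microtubule-associated protein, differed by 2.65, COL20A1 by 2.19 and PRR15L by -1.83. PER1, a clock gene, was at 16.2 to 23.3 and 6.79 to 8.72 CPM, FKBP5, a glucocorticoid-induced immunophilin, at 14.9 to 19.1 and 11.4 to 13.2 CPM and SCNN1A, an epithelial sodium channel subunit, at 10.8, 14.2, 16.6 and 17 and 10.7, 8.7, 11.9 and 8.41 CPM. The control libraries were split for SCNN1A, at 12.2, 13.8, 203 and 215 CPM. In the fit of all 12 libraries the adjusted p was 0.0776 for PER1, 0.548 for FKBP5 and 0.555 for SCNN1A. SPNS2, a sphingosine-1-phosphate transporter, was not called (log2 difference 0.49 ± 0.39 (SE), adjusted p = 0.32, edgeR, 95% interval -0.38 to 1.35), and without replicate 4 of siGOLM1-2 its difference was 0.91 with an adjusted p of 0.0399.

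For the remaining lists only counts are given, to be read against the 26.0% and 28.1% of all genes tested that were called in each direction. Called higher with siGOLM1-1 and higher with siGOLM1-2 were 5 and 9 of 19 matrix proteases and inhibitors, 3 and 4 of 10 plasminogen system genes, 6 and 4 of 15 YAP and TEAD genes, 9 and 7 of 27 ERK feedback and immediate early genes, and 5 and 4 of 14 IGF axis genes. For 18 glucocorticoid-responsive genes the counts were 9 and 5, for 18 clock genes 8 and 6, for 24 fatty acid genes 12 and 4 (median 0.26) and for 20 prostaglandin and sphingosine-1-phosphate genes 5 and 7. Of 16 BCL2 family genes 8 and 6 were called, of 14 histone genes 5 and 5, of 25 lysosome genes 5 and 7, of 22 autophagy genes 7 and 3 and of 20 RNA interference genes 5 and 7. Of 10 metallothionein and zinc transport genes 1 and 3 were called, of 17 immune surface ligand genes 3 and 8, and of 8 markers of other cell types 2 and 3. The shares of lysosome genes (20.0% and 28.0%) and IGF axis genes (35.7% and 28.6%) lay near those of all genes.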

How the data were processed

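RNA was sequenced as stranded, poly(A)-selected, paired-end libraries, per the labels' protocols. The authors used bcl2fastq 2.20, STAR 2.7.3 and DESeq2 1.24.0 with the build hg19, per the submitters' processing notes. No counter, annotation release or strand setting is given in the sources used here, so overlapping genes and near-identical families are uncertain. The deposited table holds raw counts per gene for 12 libraries, and only these counts were used. Here, edgeR 4.0.16 in R 4.3.3 compared the 4 siGOLM1-1 with the 4 siGOLM1-2 libraries by a robust quasi-likelihood fit with TMM factors after filterByExpr. The fit had 6 residual degrees of freedom and a common biological coefficient of variation of 0.14. Calls needed an adjusted p (Benjamini-Hochberg, all 17074 genes) under 0.05, and each adjusted p comes from this test unless another is named. Values against control come from one fit of all 12 libraries (9 residual degrees of freedom). Total counts of 41617042 to 71344718 per library gave a median standard error of 0.09 (log2) for genes of at least 100 CPM and 0.31 under 1 CPM. Principal components used log2 CPM with a prior count of 2. The 51 gene lists hold 1133 genes, and these lists, the compared groups and the rule for named genes were chosen with earlier results of these data known. Named genes were GOLM1, CASC4 and a fixed set of 28, the 12 largest non-overlapping differences each way at 5 CPM or more, the 8 largest each way on opposite sides of control, the 5 highest CPM each way with a log2 difference of 1 or more, the 4 smallest p of each list, and the 6 smallest p among holders of each leading word called in its direction at 5 CPM or more. The rule allows 255 genes, of which 150 are described with values or by name; the rest are not reported here, save in the counts of their lists. Lists are given by counts and medians without a set test. Longest annotated 3′ UTRs were found for 99.7% of the protein-coding genes tested. The fit was tested on simulated data. Alternatives used DESeq2 1.42.0, sva 3.50.0, other scalings and filters, a replicate block, and leaving out each library.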

Additional observations from a re-analysis of the deposited data

Results flagged for a closer look

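In groups of 4 libraries, a library was singled out where its gap to the nearest other library, divided by the range of the group, exceeded Dixon's 95% critical value. Chance gives about 1 such case in 20 groups, and 41 of the 300 gene and group pairs described here met the criterion. Of these, 28 were in replicate 4 of siGOLM1-2 and 8 in replicate 1 of siGOLM1-1, the libraries that also stood apart on the second component. Values below are CPM of the library against the range of the other 3 libraries of its group. Replicate 4 of siGOLM1-2 was the highest of its group for ANKRD22 (10.4 against 5.48 to 5.93), B2M (572 against 411 to 432), BIRC3 (118 against 51.7 to 58.4), C1orf116 (29.6 against 21.2 to 21.9), C4BPB (40.1 against 15.5 to 18) and CD55 (241 against 173 to 181). It was likewise highest for CDH3 (12.5 against 8.81 to 9.12), CXCL5 (518 against 340 to 353), FTL (5700 against 4318 to 4500), GALNT5 (65.1 against 52.3 to 53.4), GATA6 (11.6 against 7 to 7.24) and IFI16 (38.1 against 21.5 to 23.3). Higher values than in the other libraries were also found there for IL6 (17.4 against 2.43 to 3.71), INSIG1 (86 against 56.4 to 59.5), LAMA4 (10.9 against 6.35 to 6.73), PLAU (70.8 against 54.7 to 56.2), PSG4 (2.96 against 0.727 to 0.999) and S100A9 (7.12 against 5.36 to 5.63). The same library was above the others for SAA1 (20 against 3.5 to 4.69), SPNS2 (6.72 against 2.56 to 2.96) and TMEM173 (6.4 against 2.67 to 2.86). It was the lowest of its group for AKR1C2 (1358 against 1737 to 1787), CLDN2 (425 against 633 to 671), COL1A1 (21.3 against 28.5 to 29.7), COL3A1 (2.98 against 7.09 to 7.58), JUP (384 against 480 to 496), KIAA1191 (24.3 against 26.1 to 26.2) and SUMF2 (222 against 233 to 234). Replicate 1 of siGOLM1-1 was lowest for C10orf10 (2.94 against 11.8 to 12.9), C1QL1 (20.5 against 39.2 to 42.7), IFI16 (12.5 against 17.1 to 17.8) and TMEM189 (43 against 51.2 to 52.5) and highest for COL3A1 (1.49 against 0.32 to 0.423), IFI44L (0.0427 against 0.0188 to 0.0212), PCSK5 (12.2 against 8.45 to 8.83) and PCSK7 (25.8 against 20.4 to 21.3). The other cases were AQP3 in replicate 3 of siGOLM1-1 (9.28 against 6.4 to 6.65), C1orf116 in replicate 4 of siGOLM1-1 (2.01 against 2.84 to 2.97), GOLM1 in replicate 4 of siGOLM1-1 (37.5 against 38.7 to 38.9), NLRC5 in replicate 3 of siGOLM1-2 (20.3 against 19.6 to 19.7) and OAS2 in replicate 2 of siGOLM1-1 (0.169 against 0.0996 to 0.106).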

How the results depend on the processing

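Across 19 alternatives, no called gene was called in the opposite direction, and 86.1% to 100% of the 9240 calls were kept. The number called ranged from 8092, with at least 1 CPM in at least 4 libraries, to 10782, with 1 surrogate variable. That CPM filter also gave the 86.1%. It tested 13960 genes in place of 17074, and calls of genes it did not test counted as not kept. Leaving out 1 library gave 8166 to 9779 calls, of which 3871 to 4927 were higher with siGOLM1-1 and 4250 to 4852 higher with siGOLM1-2. DESeq2 called 9454 genes (4750 and 4704). Same-numbered libraries did not consistently deviate together (correlations of 0.23, -0.05, -0.21 and 0.03). These values cannot show whether equal numbers mark a shared culture or day, which the labels do not state. With the replicate number as a block, 9002 genes were called (4278 and 4724). Of the described genes, none changed direction. PER1, FKBP5 and SCNN1A were not called in the fit of all 12 libraries, nor MT-CYB (adjusted p = 0.052) when genes with any count were tested; the cause was not tested. CEACAM19 also lost its call with upper quartile factors (adjusted p = 0.0591). TMEM173 was called under 8 alternatives and SPNS2 under 3. For the leading words, holders minus others were -0.133 and 0.102 with words of 6 bases and -0.309 and 0.24 with words of 8 bases. Chosen after seeing the data, the shortest of 3 classes of 3′ UTR length gave -0.346 and 0.38 and the middle class -0.274 and 0.219. Leaving out 1 library gave -0.24 to -0.195 and 0.142 to 0.191. Genes under 1 CPM had a median standard error of 0.31 (log2), which limits what can be called among them.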

Other observations

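Imprinted genes, expressed from one parental copy, included large differences each way. Of 16 tested, 5 were called higher with siGOLM1-1 and 3 higher with siGOLM1-2 (median 0.42), against 26.0% and 28.1% of all genes. Next to MEST, which was low with siGOLM1-1, stood H19, a long non-coding RNA, and CDKN1C, the cell-cycle inhibitor p57. H19 was at 15.6, 12.7, 9.34 and 10 CPM with siGOLM1-1, 3.13, 2.52, 2.47 and 1.35 CPM with siGOLM1-2 and 1.08, 1.71, 0.72 and 0.604 CPM in control (log2 difference 2.30 ± 0.25 (SE), adjusted p = 1.9e-05, edgeR). CDKN1C was at 3.33, 5.29, 4.32 and 5.19 CPM with siGOLM1-1 and 0.626, 0.559, 0.626 and 0.935 CPM with siGOLM1-2, and the control libraries were split at 0.56, 0.577, 1.61 and 1.93 CPM. For both genes every siGOLM1-1 library was above every siGOLM1-2 library, and 49.1% of all genes tested had no overlap in one direction or the other.

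Lung lineage genes had 6 of 16 (37.5%) called higher with siGOLM1-2 and 5 (31.2%) higher with siGOLM1-1 (median -0.26). Over all genes tested the shares were 28.1% and 26.0%, so the list as a whole was not one-sided. The 3 genes described here are from those higher with siGOLM1-2. AQP3, an aquaporin of airway basal cells, was at 6.4, 6.65, 9.28 and 6.54 CPM with siGOLM1-1, 63.9, 61.1, 67 and 42.4 CPM with siGOLM1-2 and 7.93 to 11.3 CPM in control (log2 difference -3.05 ± 0.17 (SE), adjusted p = 1.87e-07, edgeR). ABCA3, the lipid transporter of lamellar bodies, was at 53.6 to 64 CPM with siGOLM1-1 and 139 to 151 CPM with siGOLM1-2, with control between them at 97.7 to 102 CPM. GATA6, a transcription factor of the lung epithelium, was at 1.62, 2.18, 2.13 and 1.97 CPM and 7, 7.21, 7.24 and 11.6 CPM. These 3 genes, chosen by small p within the list, had no overlap between the siRNA groups, as had 49.1% of all genes tested.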
